A study of Homo sapiens with 6 samples.

Results

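The transcripts described here are the 409 well-expressed long intergenic non-coding RNAs (lincRNAs) of HepG2 cells, an established line from a human liver tumor. They were selected on their own level: rows of the count table with the gene type lincRNA and a CPM of at least 1 in at least 3 of 6 libraries, where CPM is 1000000 times a gene's count over the library's total count. The table holds 30987 genes, 3546 of them lincRNAs. The selection leaves out H19, MEG3, GAS5, ZFAS1, EPB41L4A-AS1, the SNHG hosts of small nucleolar RNAs and the transcripts of the HOX clusters, and 5 lincRNAs that reached the level were left out in this way. Cells of the siPAIP1 group were transfected with siRNA3 against PAIP1, and cells of the Ctrl group with a non-targeting control siRNA. Both groups were HepG2 harvested 48 h after transfection, with 3 biological replicates each, and poly(A) RNA was sequenced. A single siRNA stands for the knockdown, in 1 cell line.

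PAIP1 binds poly(A)-binding protein and promotes translation initiation. Its own mRNA, targeted by the siRNA, had 28.1, 22.3 and 20.7 CPM in siPAIP1, against 91.1, 80.6 and 88.4 CPM in Ctrl, so no library went against its label. LincRNAs are transcribed by RNA polymerase II outside protein-coding genes, and most are capped, spliced and polyadenylated. Some remain in the nucleus as parts of nuclear bodies, others act in the cytoplasm, carry a microRNA in their introns or exons, or have turned out to encode a small protein, and many are short-lived products of promoters that fire in both directions. In liver cells, HULC and LINC00261 are among the best-known lincRNAs.

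Totals of the deposited counts were 29313211 to 34157368 in siPAIP1 and 31045623 to 34659866 in Ctrl. The hepatocyte markers ALB, AFP, APOA1 and SERPINA1 each had at least 262.5 FPKM (fragments per kilobase of transcript, scaled by library size) in every library. PTPRC, the leukocyte marker, had 0 CPM in all siPAIP1 libraries and at most 0.029 CPM in Ctrl. Other markers of other cells were not all absent. CD68, also a blood marker, had 1.68, 2.02 and 2.15 CPM in siPAIP1, against 1.88, 1.91 and 1.67 CPM in Ctrl. SOX9, a bile duct marker, had 86.7, 86.3 and 91.6 CPM in siPAIP1, against 96.2, 114.8 and 95.5 CPM in Ctrl. COL1A1, DCN, PECAM1 and VWF had at most 1.98 CPM in any library, and KRT7 at most 5.86 CPM. siPAIP1 replicate 3 and Ctrl replicate 2 stood apart among the lincRNAs. siPAIP1 replicate 3 had 43 of the 409 members (10.5%) at more than 2 times the mean of siPAIP1 replicates 1 and 2, against 5.11% of all 13213 genes at the same CPM level. Ctrl replicate 2 had 8 members (1.96%) at more than 2 times the mean of the other Ctrl libraries, against 0.265% of all genes. The other libraries had 0 such members. Results that rest on these libraries are given with and without them.

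The siRNA guide strands are shown first because their seed (bases 2 to 8, in capitals) sets which short words in other RNAs they can pair with.
si-3 guide: uAUCAUCCaaguauggauctt
siNC guide: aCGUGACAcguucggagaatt
The word complementary to the si-3 seed occurred in the longest GENCODE transcript of 47 of 378 annotated members (12.4%), against 22.1% of all tested genes. It was in 2 of the 24 members that rose and in 4 of the 11 annotated members that fell. The longest transcripts of members are shorter than those of all tested genes, with medians of 2122 and 3361 bases. The words stood at 0.171 per kilobase in members that fell, 0.028 in those that rose and 0.0538 in all members. Over all tested genes they stood at 0.0716 per kilobase, with 0.0898 in genes called lower and 0.0487 in genes called higher. The word was in 26.4% of all annotated genes called lower and in 16.8% of those called higher, so a difference in this direction was not particular to the members. The windows around the 5 words in members that fell, read from GRCh38 with the word in capitals, are as follows.
MIR4435-2HG site 1, chr2:111367091-111367119, - strand: tgagcatgattGGATGATgtttattttga
MIR4435-2HG site 2, chr2:111364469-111364497, - strand: catttgcagttGGATGATggctggagcag
RP1-27K12.2 site 1, chr6:53569485-53569513, - strand: gctgccatccaGGATGATgccaccatcac
RP11-798K3.2 site 1, chr15:67063494-67063522, - strand: ggtggggatgaGGATGATgtgactgagtg
CTD-2292M16.8 site 1, chr14:20260757-20260785, - strand: acctttttactGGATGATagggtattttt
A word match is a description of these letters, and whether the siRNA acted on these RNAs was not tested. The word complementary to the siNC guide seed occurred in 0 of the members that rose or fell, and in 6.08% of annotated members.

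Of the 409 members, 323 reached 1 CPM in all 6 libraries, 8 passed through the siPAIP1 libraries alone and 4 through the Ctrl libraries alone. The members nearest to the limit, RP11-462L8.1, RP11-1007O24.3 and ZNF503-AS1, each had a third-highest CPM of 1.0015. The lincRNAs just below it were C3orf35 at 0.9985, and RP11-479G22.8 and RP11-112J3.16 at 0.9954 each. Together the members took 0.265%, 0.278% and 0.511% of the counts in siPAIP1, against 0.262%, 0.294% and 0.264% in Ctrl. The siPAIP1 share was high in replicate 3 alone, and the groups overlapped (exact permutation test, two-sided p = 0.5, smallest possible p 0.1). MALAT1 and NEAT1 made up 44.8% of the member counts in siPAIP1 replicate 3 and 7.87% and 9.82% in the other siPAIP1 libraries, against 8.91%, 14.5% and 8.59% in Ctrl. The remaining members summed to 2439, 2509 and 2819 CPM in siPAIP1, against 2390, 2513 and 2410 CPM in Ctrl (exact permutation test, p = 0.3).

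**Figure D1:**
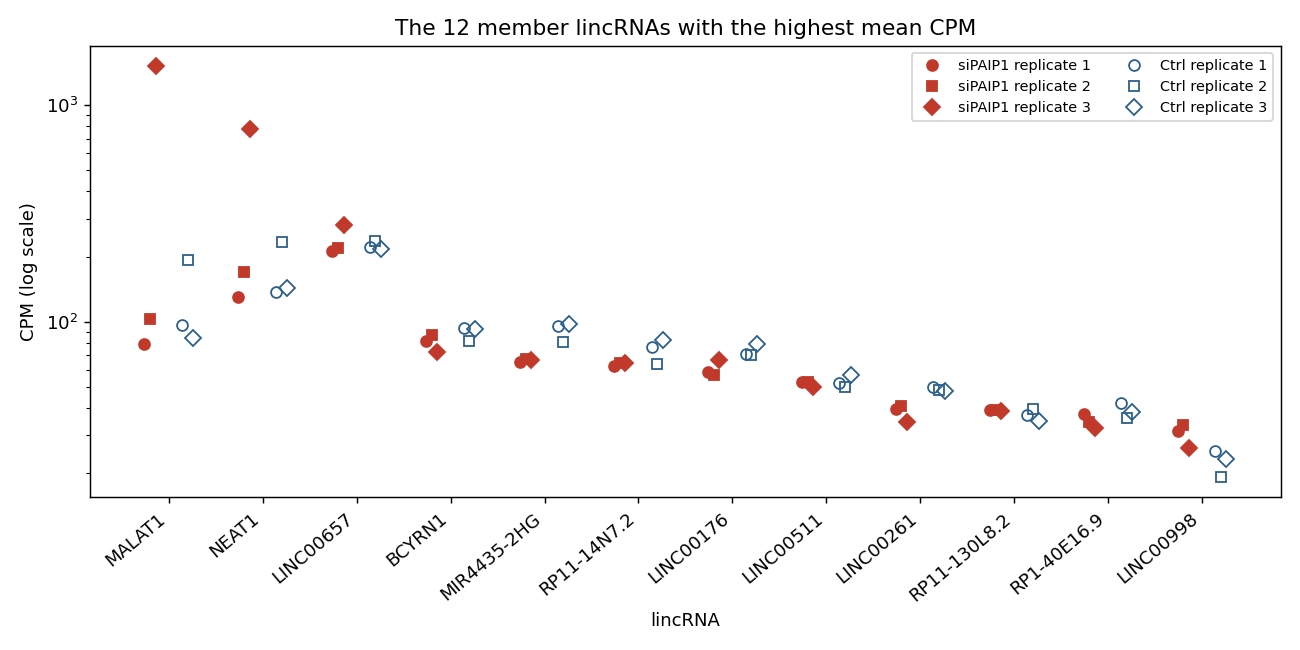
CPM (log scale) of the 12 lincRNAs with the highest mean CPM, with 1 point per library, siPAIP1 filled and Ctrl open. MALAT1 reached 1512 CPM in siPAIP1 replicate 3 and at most 193 CPM in any Ctrl library, whereas most of the others lay within a narrow band.

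Per length (FPKM), the highest members in Ctrl were clone-named, whereas MALAT1, with 8.37, 10.9 and 144 FPKM in siPAIP1, was above them in siPAIP1 replicate 3. RP11-130L8.2 had 79.8 ± 5.55 FPKM in siPAIP1 and 78.0 ± 3.88 FPKM in Ctrl, and RP11-14N7.2 had 68.3 ± 3.35 FPKM in siPAIP1 and 81.6 ± 11.7 FPKM in Ctrl (SD, n = 3 each). LINC00657, better known as NORAD, a cytoplasmic RNA that binds PUMILIO proteins, followed with 39.6 ± 3.56 FPKM in siPAIP1 and 38.7 ± 0.921 FPKM in Ctrl. These 3 did not pass the test between the groups with all 6 libraries. RP11-130L8.2 overlaps a protein-coding gene on the same strand, so reads of that gene could be counted in its row. RP11-14N7.2 was called lower without siPAIP1 replicate 3 (log2 fold change -0.29, edgeR adjusted p = 0.027) and without that library and Ctrl replicate 2. NORAD counts were 212, 220.0 and 279 CPM in siPAIP1, against 222, 236 and 217 CPM in Ctrl, with siPAIP1 replicate 3 above all other libraries. BCYRN1 is a 200-base RNA made by RNA polymerase III that binds translation initiation factors. The row of that name had 81.8, 87.1 and 72.3 CPM in siPAIP1, against 93.6, 81.6 and 92.9 CPM in Ctrl. The row did not pass the test with all libraries (edgeR adjusted p = 0.21). Without siPAIP1 replicate 3 and Ctrl replicate 2 it was called lower, with a log2 fold change of -0.21 (edgeR adjusted p = 0.0037). The row had only 5.66, 5.99 and 4.48 FPKM in siPAIP1, so it was counted over far more than 200 bases. Its values may therefore not be those of the short RNA. That RNA derives from repeat sequence, so its reads are uncertain.

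The comparison of siPAIP1 with Ctrl asks which lincRNAs change when PAIP1 is depleted. By edgeR's quasi-likelihood test with adjustment over 15528 genes, 24 members rose (5.87%, against 5.68% of all genes tested) and 15 fell (3.67%, against 6.2%). At an additional change of at least 2-fold, as the study defined differentially expressed genes (DEGs), 9 members rose (2.2%, against 1.11% of all genes) and 1 fell (0.244%, against 1.1%). Of those 9, AC159540.1, RP11-502I4.3 and AC141928.1 had reached the level limit through the siPAIP1 libraries alone, so their being in the set depends on the difference itself, and the DEG counts are in part made by the selection. Without the 8 and 4 members that reached the limit through 1 group alone, 6 of 397 were DEGs that rose (1.51%) and 1 a DEG that fell. All CPM values in siPAIP1 lay above all in Ctrl for 102 members (24.9%, against 24.6% of all genes), and below for 43 (10.5%, against 13.3%). The median log2 fold change was 0.12 for the members and 0.03 for all genes. At an adjusted p under 0.05 alone, the share of members that rose was close to that of all genes, and the share that fell was below it. A mean CPM under 10 was found in 21 of the 24 that rose (87.5%), in 8 of the 15 that fell and in 352 of all 409 members (86.1%).

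Library choice moved these counts widely. Leaving out Ctrl replicate 1 left 2 higher and 2 lower, and leaving out Ctrl replicate 3 left 2 and 3. Without Ctrl replicate 2 there were 9 and 7, without siPAIP1 replicate 1 there were 14 and 5, and without siPAIP1 replicate 2 there were 6 and 4. The share of all genes called in these fits is not given, so the lower counts are not shown to be particular to lincRNAs. Without siPAIP1 replicate 3, 54 members were higher (11.8% of all genes) and 38 lower (12.4% of all genes), and the median log2 fold change was 0.01. Without that library and Ctrl replicate 2, 63 were higher (15.3% of all genes) and 41 lower (16.5% of all genes). All 24 and all 15 kept their call in both of these fits. Not all DEGs stayed at 2-fold. Without siPAIP1 replicate 3, the log2 fold changes of RP11-212P7.2, LINC00654, RP11-448A19.1 and RP11-1275H24.1 were 0.95, 0.95, 0.89 and 0.85. In that fit 6 members were DEGs higher and 3 DEGs lower, against 187 and 223 among all genes tested with 6 libraries. Only RP3-395M20.12 and LINC00704 among those that rose, and RP11-511B23.1 and RP11-401P9.4 among those that fell, kept it whichever single library was left out.

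**Figure D2:**
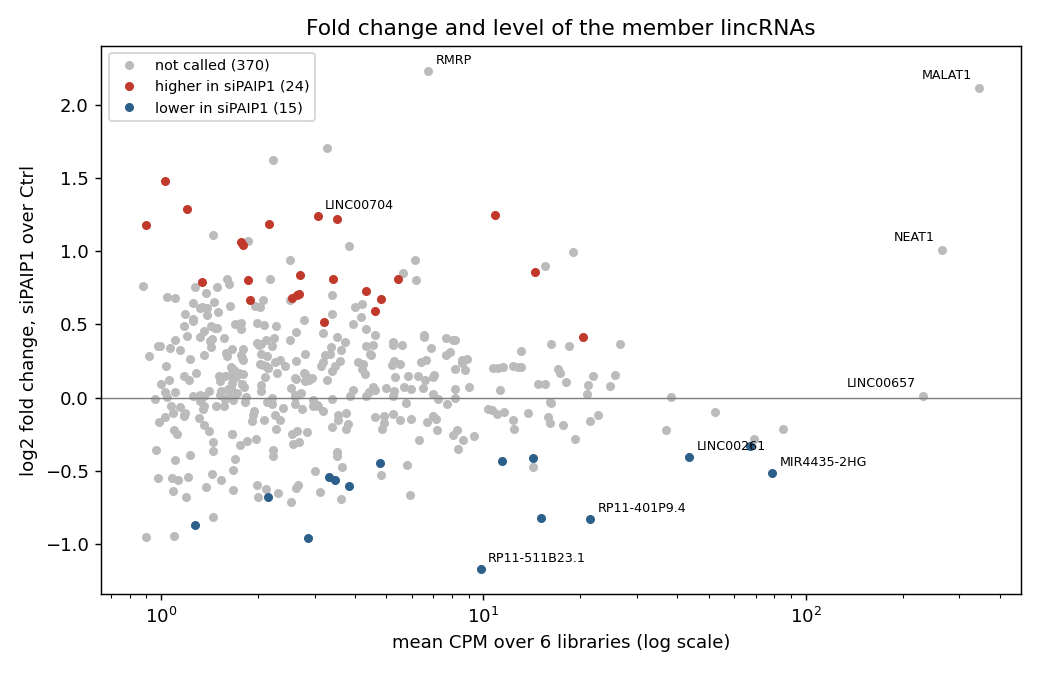
Fitted log2 fold change of siPAIP1 over Ctrl against mean CPM (log scale) for the 409 members, colored by edgeR's call. The members that fell reach higher levels than those that rose, and MALAT1, NEAT1 and RMRP lie high without a call.

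Among the lincRNAs that rose, LINC00704 (chr10:4581295-4678216), also called MANCR and known as a mitotically associated lncRNA, had 4.42, 4.89 and 3.75 CPM in siPAIP1, against 1.76, 1.52 and 2.03 CPM in Ctrl. The lowest siPAIP1 value exceeded the highest Ctrl value, and the fitted log2 fold change was 1.24 ± 0.18 (SE; edgeR adjusted p = 0.0068). RP3-395M20.12 (chr1:2530064-2547471), which starts 199 bp from HES5, a Notch target gene, on the opposite strand, had 4.65, 5.06 and 5.19 CPM in siPAIP1, against 2.02, 1.85 and 2.25 CPM in Ctrl. Its log2 fold change was 1.22 ± 0.14 (edgeR adjusted p = 0.0033), with tight replicates in both groups. It overlaps a protein-coding gene on the other strand, and whether the counting used strand is not given in the sources used here.

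The next DEGs were less stable. LINC00654 had 2.12, 2.49 and 2.76 CPM in siPAIP1, against 1.10, 1.22 and 1.10 CPM in Ctrl, with a log2 fold change of 1.04 ± 0.18 (edgeR adjusted p = 0.012), and lost the call without siPAIP1 replicate 2, Ctrl replicate 1 or Ctrl replicate 3. AC159540.1, in the set through the siPAIP1 libraries alone, had 1.41, 1.26 and 1.94 CPM in siPAIP1, against 0.462, 0.597 and 0.515 CPM in Ctrl. Its fitted log2 fold change was 1.48 ± 0.25, given as a description, and it lost its call without Ctrl replicate 1 or 3. RP11-212P7.2 had 12.5, 12.9 and 21.3 CPM in siPAIP1, against 6.55, 6.59 and 5.64 CPM in Ctrl. The third siPAIP1 value was the highest, and the log2 fold change of 1.25 became 0.95 without that library. AC141928.1, RP11-448A19.1 and RP11-1275H24.1 were also highest in siPAIP1 replicate 3, at 2.29, 4.20 and 3.10 CPM, against Ctrl means of 0.674, 1.27 and 1.11 CPM. Each of these 3 lost its call in 4 of the 6 leave-one-out fits. RP11-502I4.3 lost it in 5 and was highest in siPAIP1 replicate 1. AC141928.1 and RP11-502I4.3, like AC159540.1, were under 1 CPM in every Ctrl library.

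**Figure D3:**
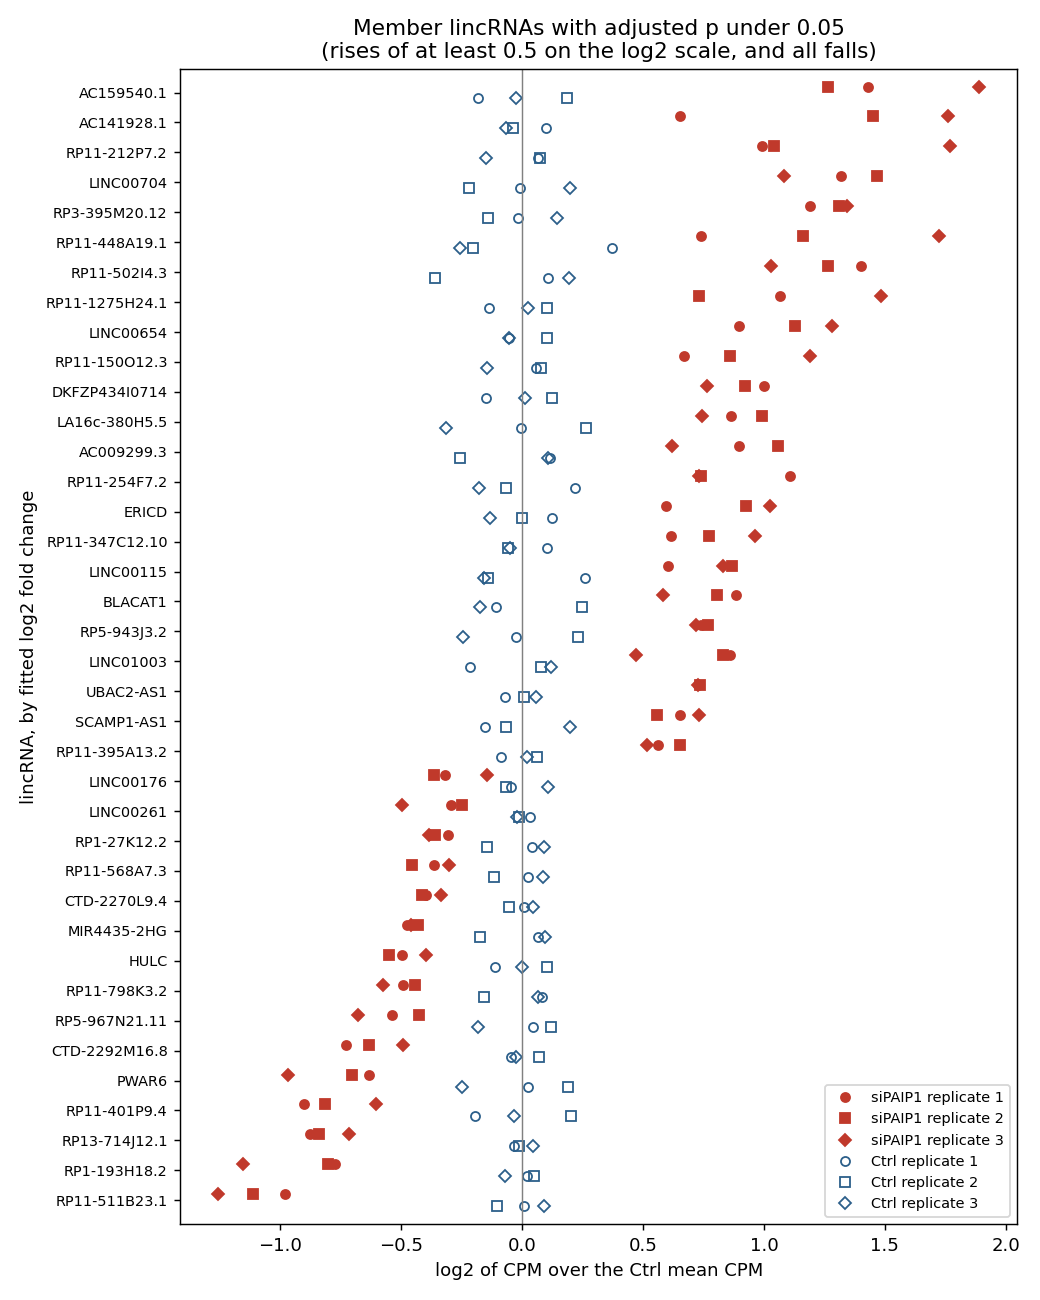
Log2 of each library's CPM over the Ctrl mean CPM for 38 of the 39 members called by edgeR's test (those that fell, and those that rose by at least 0.5 on the log2 scale), ordered by fitted fold change, siPAIP1 filled and Ctrl open. In each of the 38, the siPAIP1 points lie to 1 side of the Ctrl points.

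The rule for a divergent pair was a start site within 1 kb of that of a protein-coding gene on the opposite strand, pointing away. Among members with a tested neighbour, 67 of 301 met it. Of these 67, 9 were called higher and 0 lower by edgeR's test, where 5.68% and 6.2% of all genes were. The unadjusted p was under 0.05 for 23 higher and 5 lower members, against 14.8% and 13.8% of all genes, and DESeq2 called 4 and 0. Single-exon genes, which many promoter-associated transcripts are, made up 54.2% of the members that rose, 27.3% of the annotated members that fell and 33.3% of all annotated members. This describes the called members, and no test of the difference was made. DKFZP434I0714, 172 bp from FBXW7, which encodes a ubiquitin ligase subunit, had 3.77, 3.57 and 3.21 CPM in siPAIP1, against 1.70, 2.06 and 1.90 CPM in Ctrl. RP11-502I4.3, 99 bp from the kinase gene MAP2K5, had 1.41, 1.29 and 1.09 CPM in siPAIP1, against 0.577, 0.418 and 0.612 CPM in Ctrl. In both pairs the lincRNA values did not overlap between groups, whereas FBXW7 and MAP2K5 had log2 fold changes of 0.15 and 0.16 and no call. Both lincRNAs were taken from the called members, so their separation is given as a description. RP11-502I4.3, counted among the 9, is in the set through the siPAIP1 libraries alone, so its place there depends on the difference itself. RP11-448A19.1 beside NRF1, a transcription factor gene, had 2.12, 2.84 and 4.20 CPM in siPAIP1, against 1.64, 1.10 and 1.06 CPM in Ctrl, and NRF1 had 0.06 on the log2 scale. A further 5 divergent members that rose, named after their values were seen, were SCAMP1-AS1, UBAC2-AS1, RP5-943J3.2, RP11-395A13.2 and ERICD, the last beside the Argonaute gene AGO2. Of the 9 neighbours, 0 were called by edgeR, 1 was lower at an unadjusted p under 0.05 and 1 was lower by DESeq2. All 9 lincRNAs lost the call when Ctrl replicate 1 was left out, and likewise without Ctrl replicate 3.

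**Figure D4:**
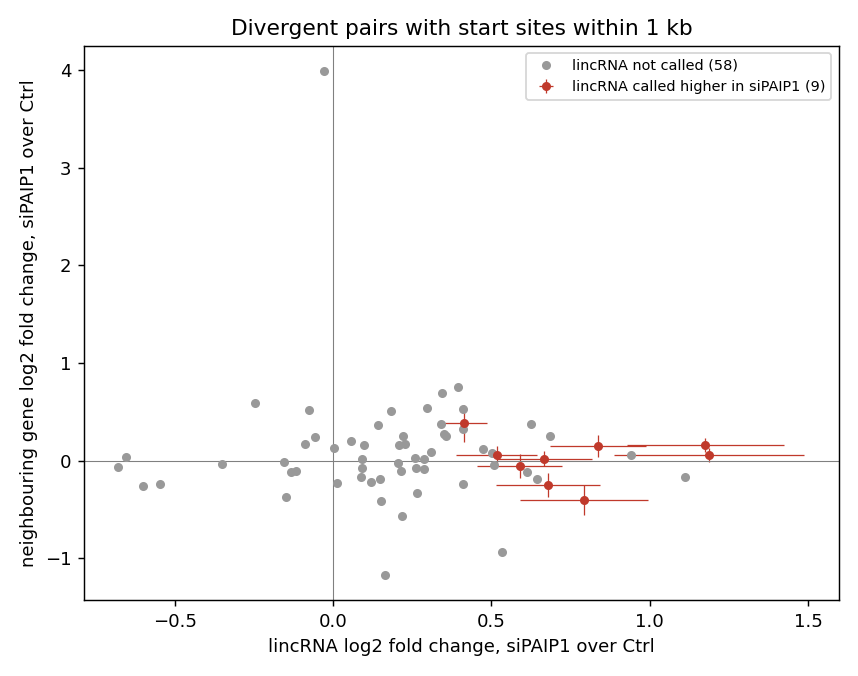
Log2 fold change of the lincRNA (horizontal) and of its protein-coding neighbour (vertical) for 67 divergent pairs, with SE bars for the 9 pairs whose lincRNA was called higher. Among the neighbours of those 9, AGO2 beside ERICD is the lowest at -0.40, and the point at 3.99 is ZIM2, which reached 37.8 CPM in siPAIP1 replicate 3 alone.

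Promoter sequences from RefSeq (GRCh38.p14, windows of 300 bases around the start, mostly upstream) matched 169 of the 409 members. Those of 3 members that rose and of 1 that fell are shown because they differ in base composition. Capitals mark GGGCGG or CCGCCC (the GC box), CCAAT or ATTGG, and TATAAA or TTTATA, searched on both strands.
DKFZP434I0714 promoter, chr4:152536014-152536313, + strand: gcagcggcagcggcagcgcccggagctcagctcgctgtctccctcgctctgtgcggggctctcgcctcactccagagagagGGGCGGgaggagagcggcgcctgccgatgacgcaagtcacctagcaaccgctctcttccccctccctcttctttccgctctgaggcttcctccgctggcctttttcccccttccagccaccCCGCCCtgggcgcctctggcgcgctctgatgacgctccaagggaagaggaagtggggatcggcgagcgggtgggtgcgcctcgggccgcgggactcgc
RP11-502I4.3 promoter, chr15:67542581-67542880, - strand: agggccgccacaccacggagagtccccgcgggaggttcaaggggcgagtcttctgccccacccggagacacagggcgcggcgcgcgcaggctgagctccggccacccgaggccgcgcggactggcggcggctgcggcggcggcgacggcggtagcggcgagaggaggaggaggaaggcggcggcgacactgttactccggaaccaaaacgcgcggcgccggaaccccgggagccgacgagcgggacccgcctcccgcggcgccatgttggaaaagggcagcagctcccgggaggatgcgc
LINC00704 promoter, chr10:4678021-4678320, - strand: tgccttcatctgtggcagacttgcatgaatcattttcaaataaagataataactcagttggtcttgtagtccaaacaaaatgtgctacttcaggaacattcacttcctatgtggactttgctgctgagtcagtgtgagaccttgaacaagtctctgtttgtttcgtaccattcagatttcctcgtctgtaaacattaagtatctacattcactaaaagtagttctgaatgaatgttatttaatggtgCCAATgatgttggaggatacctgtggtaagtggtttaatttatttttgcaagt
LINC00261 promoter, chr20:22578593-22578892, - strand: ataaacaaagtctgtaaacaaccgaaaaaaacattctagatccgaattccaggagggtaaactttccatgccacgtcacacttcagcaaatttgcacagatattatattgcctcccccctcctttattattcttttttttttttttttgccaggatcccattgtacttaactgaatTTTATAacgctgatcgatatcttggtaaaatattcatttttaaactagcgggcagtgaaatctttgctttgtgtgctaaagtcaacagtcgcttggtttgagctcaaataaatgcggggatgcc
The windows of the divergent DKFZP434I0714 and RP11-502I4.3 hold 29 and 45 CG dinucleotides, and those of LINC00704 and LINC00261 hold 2 and 8. A GC box stood in 7 of the 12 matched members that rose, in 0 of the 3 that fell, in 55.6% of all matched members and in 44.6% of all RefSeq promoters. A CCAAT box stood in 5 of the 12 and in 35.7% of all promoters, and a TATA box in 2 of the 12 and in 11.95% of all promoters. These matches describe the letters only.

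Of the lincRNAs that fell, RP11-511B23.1 (LINC02413, chr12:92999218-93019820) had 6.80, 6.21 and 5.63 CPM in siPAIP1, against 13.5, 12.5 and 14.3 CPM in Ctrl. It was the 1 DEG in this direction, with a log2 fold change of -1.17 ± 0.11 (edgeR adjusted p = 0.002). RP11-401P9.4 had 14.5, 15.4 and 17.8 CPM in siPAIP1, against 23.6, 31.1 and 26.5 CPM in Ctrl, with a log2 fold change of -0.83 ± 0.12 (edgeR adjusted p = 0.007). Both separated the groups in every library, and both kept the call in all leave-one-out fits. PWAR6, from the imprinted Prader-Willi region of chromosome 15, had 12.2, 11.7 and 9.69 CPM in siPAIP1, against 19.3, 21.6 and 15.9 CPM in Ctrl, and its log2 fold change of -0.82 ± 0.14 (edgeR adjusted p = 0.012) lost the call without Ctrl replicate 1 or 2. RP1-193H18.2 had 2.18, 2.14 and 1.67 CPM in siPAIP1, against 3.78, 3.85 and 3.54 CPM in Ctrl, and lost its call without any 1 of the Ctrl libraries.

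MIR4435-2HG (chr2:111006015-111523376), the member with the most CPM among those that fell, hosts the microRNA miR-4435. It had 65.6, 67.7 and 66.4 CPM in siPAIP1, against 95.5, 80.8 and 97.3 CPM in Ctrl, a log2 fold change of -0.52 ± 0.09 (edgeR adjusted p = 0.014), and lost the call without siPAIP1 replicate 2, Ctrl replicate 1 or Ctrl replicate 3. The siPAIP1 values lay close together, and Ctrl replicate 2 was the lowest Ctrl library. LINC00152, its near-identical copy on the same chromosome, had 16.0, 17.0 and 17.9 CPM in siPAIP1, against 20.5, 15.5 and 19.5 CPM in Ctrl. Only uniquely mapped fragments were counted, so fragments that match both copies equally would be missing from both values. The mature microRNAs of this host and of the 2 hosts that were high in siPAIP1 replicate 3 are shown with the seed in capitals.
hsa-miR-4435 (MIR4435-2HG): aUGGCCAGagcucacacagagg
hsa-let-7a-5p (MIRLET7BHG): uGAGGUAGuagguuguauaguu
hsa-let-7b-5p (MIRLET7BHG): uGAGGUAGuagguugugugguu
hsa-miR-29b-3p (C1orf132): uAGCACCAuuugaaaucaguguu
hsa-miR-29c-3p (C1orf132): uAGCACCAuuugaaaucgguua
let-7a and let-7b share one seed, and miR-29b and miR-29c share another. MIRLET7BHG had 1.91, 2.40 and 4.95 CPM in siPAIP1, against 1.82, 2.12 and 2.54 CPM in Ctrl, and C1orf132, the miR-29b and miR-29c host, had 0.825, 1.23 and 5.66 CPM in siPAIP1, against 1.21, 1.25 and 0.999 CPM in Ctrl. The host levels are those of the precursor transcripts, and mature microRNAs were not measured. Of the 5 members on the microRNA host list, MIR4435-2HG was lower and 0 were higher by edgeR's test (0 higher also at an unadjusted p under 0.05 and by DESeq2). MIR22HG, MIR210HG and MIR4458HG overlapped between the groups; the last had 4.98, 4.68 and 4.57 CPM in siPAIP1, against 5.89, 4.59 and 4.90 CPM in Ctrl.

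Of the 9 members on the list of liver and liver tumor lincRNAs, 3 fell and 0 rose by edgeR, where 6.2% and 5.68% of all genes did. DESeq2 called 2 lower and limma 1, and 0 were higher by either or at an unadjusted p under 0.05. The 9 had a median log2 fold change of -0.19, against 0.03 for all genes. LINC00261, which neighbours the endoderm factor gene FOXA2, had 39.8, 41.0 and 34.6 CPM in siPAIP1, against 49.9, 48.3 and 48.1 CPM in Ctrl. Its log2 fold change was -0.40 ± 0.09 (edgeR adjusted p = 0.028), and that of FOXA2 was -0.17 without a call. HULC, named for its high level in liver cancer, had 2.74, 2.63 and 2.93 CPM in siPAIP1, against 3.58, 4.15 and 3.87 CPM in Ctrl, a log2 fold change of -0.54 ± 0.13 (edgeR adjusted p = 0.038). LINC00176, now annotated as the open reading frame C20orf204, had 59.0, 57.1 and 66.5 CPM in siPAIP1, against 71.1, 70.2 and 79.1 CPM in Ctrl, a log2 fold change of -0.33 ± 0.09 (edgeR adjusted p = 0.048). In all 3 the siPAIP1 values lay below the Ctrl values, and all 3 lost the call on leaving out any library other than siPAIP1 replicate 3. The hepatocyte markers ALB, AFP, APOA1, TTR and SERPINA1 had log2 fold changes of -0.77, -0.46, -0.51, -0.52 and -0.45 in the same libraries. FGB and HNF4A, also hepatocyte markers, were at -0.14 and -0.25. AFP, FGB and HNF4A were not called. Among all 6 libraries, ALB, AFP, APOA1, TTR and SERPINA1 were lowest in siPAIP1 replicate 3. ALB had 1357, 1099 and 758 CPM in siPAIP1, against 1817, 1729 and 1713 CPM in Ctrl. The marker fold changes without siPAIP1 replicate 3 are not given. The part of these marker changes in the lincRNA values was not tested. LINC00511 and CCAT1, growth-linked in several cancers, had 52.5, 52.9 and 49.8 CPM in siPAIP1, against 52.2, 49.9 and 56.9 CPM in Ctrl, and 17.4, 16.8 and 21.7 CPM in siPAIP1, against 15.1, 16.9 and 15.7 CPM in Ctrl.

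RP1-27K12.2 overlaps GCLC, the catalytic subunit gene of glutathione synthesis, on the same strand, and both were lower. It had 12.9, 12.4 and 12.2 CPM in siPAIP1, against 16.4, 14.4 and 17.0 CPM in Ctrl, and GCLC had a log2 fold change of -0.42 (edgeR adjusted p = 0.012), so their reads cannot be told apart where they overlap. RP11-568A7.3 lies 30689 bp from UNC93A and had 10.0, 9.43 and 10.5 CPM in siPAIP1, against 13.1, 11.9 and 13.7 CPM in Ctrl. UNC93A fell more steeply, by 1.34 on the log2 scale (edgeR adjusted p = 0.0014). Across all 301 members with a tested neighbour, 37 neighbours were called, 19 higher and 18 lower, and the correlation of the 2 fold changes was weak (Pearson's r = 0.12 and Spearman's rho = 0.19 across genes, which share libraries and are not independent replicates). Except where named, members that fell lost their call on leaving out at least 1 library, most often Ctrl replicate 1.

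Of the 4 members on the list of lincRNAs later found to encode microproteins, LINC00176 was lower and 0 were higher by edgeR, with 2 higher at an unadjusted p under 0.05 and 0 by DESeq2. LINC00998, which encodes the membrane microprotein SMIM30, had 31.4, 33.6 and 26.2 CPM in siPAIP1, against 25.2, 19.3 and 23.3 CPM in Ctrl, without overlap between the groups, and an edgeR adjusted p of 0.13. LINC00467 had 4.42, 5.06 and 5.70 CPM in siPAIP1, against 3.64, 3.31 and 2.96 CPM in Ctrl, also without a call (edgeR adjusted p = 0.054). Both, and JPX below, were called higher when siPAIP1 replicate 3 was left out. On the list of 11 cytoplasmic or growth-linked members, LINC00704 was higher and 0 were lower, 0 also at an unadjusted p under 0.05 and by DESeq2, and 2 were lower without both siPAIP1 replicate 3 and Ctrl replicate 2.

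In CPM, the 2 members that differed most between siPAIP1 replicate 3 and the other siPAIP1 libraries were MALAT1 and NEAT1, both nuclear RNAs. MALAT1 (chr11:65497640-65508073), which is enriched in nuclear speckles, had 78.8, 103 and 1512 CPM in siPAIP1, against 96.9, 193 and 83.8 CPM in Ctrl. NEAT1 (chr11:65422774-65445540), the scaffold of paraspeckles and its neighbour on chromosome 11, had 129.7, 170.1 and 778 CPM in siPAIP1, against 137, 233 and 143 CPM in Ctrl. siPAIP1 replicate 3 and, less so, Ctrl replicate 2 were the high libraries, and the groups overlapped for both genes. The log2 fold changes were 2.11 ± 1.07 (edgeR adjusted p = 0.24) and 1.01 ± 0.64 (edgeR adjusted p = 0.33). Without siPAIP1 replicate 3 they turned to -0.51 and -0.25, and without that library and Ctrl replicate 2 they were -0.06 and 0.03. RMRP, the RNA of the RNase MRP complex, which has no long poly(A) tail, had 2.09, 8.29 and 23.3 CPM in siPAIP1, against 1.67, 3.43 and 1.71 CPM in Ctrl, with a log2 fold change of 2.23 ± 0.77 (edgeR adjusted p = 0.11). RMRP passed the test without siPAIP1 replicate 1, without siPAIP1 replicate 3 and without both high libraries, but its lowest siPAIP1 value lay within the range of the Ctrl values.

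Of the 5 members on the nuclear-retained list, 0 were called in either direction by edgeR or DESeq2, and 1 was higher at an unadjusted p under 0.05. MALAT1, NEAT1 and FIRRE, an RNA of nuclear architecture, were over 2-fold higher in siPAIP1 replicate 3. JPX and PVT1 were not: JPX, an X-linked RNA of X-chromosome inactivation, had 8.72, 9.08 and 10.5 CPM in siPAIP1, against 7.27, 6.50 and 6.86 CPM in Ctrl, without overlap (edgeR adjusted p = 0.062), and PVT1 had 15.5, 16.8 and 16.7 CPM in siPAIP1, against 15.1, 17.4 and 15.4 CPM in Ctrl. FIRRE had 1.03, 0.79 and 2.80 CPM in siPAIP1, against 1.15, 1.16 and 0.966 CPM in Ctrl.

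The 43 members over 2-fold in siPAIP1 replicate 3 were chosen for a spread within the siPAIP1 group, which widens their error in the test against Ctrl. By edgeR 0 of them were called in either direction, the unadjusted p was under 0.05 for 4 that were higher and 1 that was lower, and DESeq2 called 2 higher. In 39 of the 43, siPAIP1 replicates 1 and 2 differed from Ctrl replicates 1 and 3 by less than 0.5 on the log2 scale. AC092669.3 had 1.30, 1.32 and 12.6 CPM in siPAIP1, against 0.635, 3.10 and 0.676 CPM in Ctrl, AC004951.6 had 2.68, 3.16 and 16.4 CPM in siPAIP1, against 3.03, 6.32 and 2.32 CPM in Ctrl, and RP11-346D14.1 had 1.50, 1.02 and 6.93 CPM in siPAIP1, against 1.10, 3.46 and 1.10 CPM in Ctrl. In each, Ctrl replicate 2 was the highest Ctrl library, as it was for MALAT1. Of the 43, 16 were also over 1.5-fold in Ctrl replicate 2, which is 37.2% of the 43 and 42.1% of the 38 members over 1.5-fold there. SNX29P2 had 1.59, 1.38 and 7.27 CPM in siPAIP1, against 1.04, 1.10 and 0.999 CPM in Ctrl, and was high in siPAIP1 replicate 3 only. The members over 2-fold were single-exon in 21.1% of 38 annotated cases and had 3 exons at the median. At less than 0.5 times the other siPAIP1 libraries were 2 members. MIR3179-3 had 1.30, 1.43 and 0.648 CPM in siPAIP1, against 1.27, 1.01 and 0.709 CPM in Ctrl, and LINC00973 had 3.95, 3.60 and 1.84 CPM in siPAIP1, against 2.28, 2.39 and 2.71 CPM in Ctrl. LINC00973 was called higher without siPAIP1 replicate 3 (edgeR adjusted p = 0.018) and not with it. Counts of the misc_RNA type took 0.003%, 0.0079% and 0.0446% of the total in siPAIP1, against 0.003%, 0.0053% and 0.0028% in Ctrl. Their part in the lincRNA values was not tested.

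**Figure D5:**
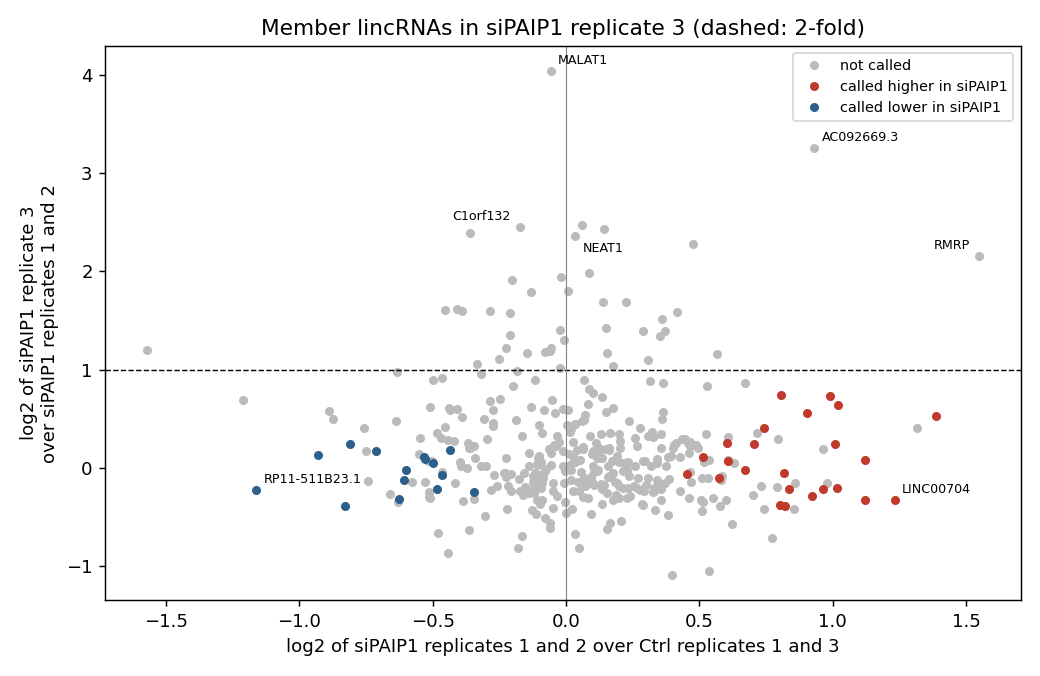
Log2 ratio of siPAIP1 replicate 3 to siPAIP1 replicates 1 and 2 (vertical) against the log2 ratio of those replicates to Ctrl replicates 1 and 3 (horizontal), for the members. All 39 called members lie below the dashed line at 2-fold, and MALAT1 lies near 0 on the horizontal axis and at the top of the vertical one.

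Genes of the machinery that matures or degrades such RNAs are given beside the 5.68% and 6.2% of all genes called higher and lower. Of 26 tested genes of nuclear RNA decay (the exosome and its NEXT and PAXT adaptors), 0 rose and 1 fell by edgeR. The unadjusted p was under 0.05 for 1 higher and 2 lower genes, and DESeq2 called 0. For 22 genes of paraspeckle proteins edgeR called 0, the unadjusted p was under 0.05 for 1 gene in each direction, and DESeq2 called 1 higher. Of 21 genes of nuclear speckles and MALAT1 maturation 2 were higher and 0 lower, with 1 lower at an unadjusted p under 0.05 and 0 by DESeq2. Of 17 genes of transcription termination and 14 of nonsense-mediated decay 0 were called by either tool, and the unadjusted p was under 0.05 for 3 and 2 higher genes and for 0 lower ones. Without both high libraries, where 15.3% and 16.5% of all genes were called higher and lower, nuclear RNA decay had 3 higher and 6 lower, and speckles and MALAT1 maturation had 4 and 1. In that fit paraspeckle proteins had 3 and 0, termination 3 and 0, and nonsense-mediated decay 1 and 0.

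At the other end, RP11-130L8.2, RP11-20D14.6 and NUP50-AS1 were the members nearest to no difference among those with a mean CPM of 5 or more. RP11-130L8.2 had 39.3, 39.2 and 38.6 CPM in siPAIP1, against 37.2, 39.8 and 34.9 CPM in Ctrl, RP11-20D14.6 had 8.63, 8.29 and 8.05 CPM in siPAIP1, against 7.88, 8.86 and 7.28 CPM in Ctrl, and NUP50-AS1 had 5.18, 5.88 and 5.05 CPM in siPAIP1, against 4.76, 5.46 and 5.12 CPM in Ctrl. The values of all 3 overlapped between the groups. Those of RP11-130L8.2 could include reads of the protein-coding gene it overlaps on the same strand.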

How the data were processed

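The data are 6 HepG2 RNA-seq libraries. Whole-number counts of uniquely mapped fragments were made by the authors for each gene after alignment to GRCh38 with TopHat2, and deposited raw. The authors also deposited FPKM from the same alignments, with 2 decimals. For the counting tool, its strand setting and the annotation release, the sources used here give nothing.

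Counts were scaled by TMM in edgeR 4.0.16 (R 4.3.3), filterByExpr kept 15528 genes, and glmQLFit and glmQLFTest compared the groups with Benjamini-Hochberg adjustment over all of them. Alternatives used DESeq2 1.42.0 and limma 3.58.1. Tested on simulated counts, the fit recovered 0%, 73% and 94% of 200 genes changed 1.5-fold, 2-fold and 4-fold. GENCODE release 44 annotated 378 members, and 31 IDs had no match. CPM values printed are by raw library total, and ratios of single libraries use TMM library sizes.

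The members and lists were chosen with earlier results of these data known. Named genes are the 12 highest by CPM, the 10 lowest adjusted p per direction, all DEGs, the extremes of siPAIP1 replicate 3 (10 highest and 5 lowest), those at the CPM limit, list members and the 3 nearest no change; others are named after their values were seen. Some members are left out of the names.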

Additional observations from a re-analysis of the deposited data

How the results depend on the processing

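Other scalings (RLE, upper quartile, library sizes from protein-coding genes), other count filters, DESeq2 and limma-trend on log2(FPKM + 0.1) left the counts of members called higher (24), lower (15), and of DEGs higher (9) and lower (1) within 1.5 times. The members called were in part different ones. DESeq2 kept the call of 15 of the 24 higher and 10 of the 15 lower members, and limma-trend that of 24 and 12. With a pseudocount of 1 on FPKM, which shrinks low genes, 0 DEGs remained in either direction. Leaving out 1 library gave 2 to 54 members higher, 2 to 38 lower, 2 to 10 DEGs higher, 1 to 3 DEGs lower, and a median log2 fold change of 0.013 to 0.14. Except without siPAIP1 replicate 3, the share of all genes called in these fits is not given. These fits gave MALAT1 -0.51 to 2.62 and NEAT1 -0.25 to 1.40 on the log2 scale. Leaving out siPAIP1 replicate 3 and Ctrl replicate 2 together, chosen after seeing the data, gave 63 higher, 41 lower and 3 DEGs lower. The low ends for MALAT1 and NEAT1 are the fits without siPAIP1 replicate 3, and without both libraries MALAT1 was at -0.061. With no filter on low counts MALAT1 and RMRP passed the test. A CPM limit of 2 gave 5 DEGs higher, and a limit of 0.5 gave 5 DEGs lower, by the construction of the set. The count of 43 members in siPAIP1 replicate 3 was 44 by raw library size, 37 by FPKM and 9 at 4-fold.

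The labels give both groups replicate numbers 1 to 3, without saying whether these pair the samples. Deviations of same-numbered libraries from their group means correlated at 0.26, -0.28 and -0.15. siPAIP1 replicate 3 correlated best with Ctrl replicate 2, at 0.39. These libraries stand apart in their groups and carry different numbers, so the correlations cannot show whether the samples were paired. With the replicate number as a block, 7 members were higher, 5 lower and 5 DEGs higher. The share of all genes called in the blocked fit is not given, so these lower counts are not shown to be particular to lincRNAs. With 3 against 3 libraries, the fit recovered 0% of simulated 1.5-fold changes, so changes of that size were often not detectable.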
